A study of Mus musculus with 8 samples.

Results

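Stromal cells that carry fibroblast activation protein alpha (FAP) on their surface were compared between mouse skeletal muscle and visceral adipose tissue, across all genes of RNA-seq count tables. The comparison uses 4 of the 8 libraries of the series. The members are the libraries that the labels name as FAP+ cells sorted by flow cytometry from dissociated skeletal muscle, 2 libraries, and from dissociated visceral adipose tissue, 2 libraries. Of the other libraries, 2 are FAP+ cells sorted from pancreas and 2 are FAP-negative mouse embryonic fibroblasts (MEFs) grown for 3 passages, and these serve as further levels of each gene and in the estimate of the spread. The labels call the libraries biological replicates and do not say whether each came from 1 mouse or from pooled mice. Strain, age, genotype and treatment of the animals are not given in the sources used here. The study, by its title, concerns what follows in the body when FAP-expressing stromal cells are removed, and the sorted libraries show which genes such cells express in the tissues they come from.

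FAP is a serine protease of the cell surface that marks fibroblast-like stromal cells in embryos, wounds, tumours and, at lower levels, healthy tissues. In skeletal muscle, stromal cells of this kind lie between the fibres, lay down matrix and secrete factors such as follistatin that act on muscle, while in visceral fat related cells include the precursors of adipocytes. Fibroblasts keep a record of where in the embryo they arose, held in transcription factor genes such as the Hox and T-box families, and the limb and the lining of the abdominal organs use different members.

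The libraries held 15516319 and 22813325 estimated fragments in muscle, and 25455781 and 27759399 in adipose. Values are given as CPM, fragments scaled to library size and composition, so they compare libraries for 1 gene and not genes with each other. The labelled cell type was checked against its markers. Fap itself had 88.8 and 107 CPM in muscle and 28 and 34.4 CPM in adipose, with 2.37 and 0.516 CPM in the FAP-negative MEFs. Pdgfra, the receptor that marks interstitial fibroblasts, had 515 and 686 CPM in muscle and 347 and 598 CPM in adipose, and none of the 10 tested stromal identity genes was called different, though 2 had an unadjusted p below 0.05 and DESeq2 called 1 higher and 1 lower, as the fit without adipose replicate 2 did, while 1 was called higher without adipose replicate 1. The Y-linked gene Ddx3y was present in each library of both groups, at 34.1 and 35.9 CPM in muscle and 17.4 and 47.1 CPM in adipose, so both groups hold RNA from males. Adipose replicate 1 stood apart from the others. For each gene the bias-adjusted fragments were set over the reads recovered from the deposited RPKM values. In adipose replicate 1 this ratio differed by more than 2-fold from the other libraries in 40.0% of 8598 well-counted genes. In each of the other 7 libraries it did so in between 0.0116% and 0.0814%. The cause was not tested. The adipose replicates differed by more than 2-fold in 28.9% of genes averaging 10 CPM or more, against 1.43% for the muscle replicates. In the recovered reads, which are whole numbers, these shares were 16.5% for adipose and 1.15% for muscle. A gene was therefore called only where its adjusted p, from edgeR's quasi-likelihood test with Benjamini-Hochberg adjustment over all tested genes, was below 0.05 in the fragments and where both muscle libraries lay on the same side of both adipose libraries in fragments and in RPKM.

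By that rule 344 genes were higher in muscle than in adipose FAP+ cells, which is 2.32% of the 14847 tested, and 499 were lower, which is 3.36%. The widest gaps toward muscle were those of Myoc, Thbs4, Comp and Shox2, genes of secreted proteins and of a limb transcription factor, and the widest toward adipose those of Tcf21, Hp, Wt1 and Col6a5, genes of visceral transcription factors, of a haemoglobin-binding protein and of a collagen chain. The median size of the called changes was 2.45 on the log2 scale for the higher genes and 2.65 for the lower ones, and 226 of the higher and 357 of the lower genes changed by more than 4-fold. The recovered reads gave 859 higher genes, 5.98% of 14365, and 1075 lower ones, 7.48%, and 281 of the 344 and 451 of the 499 were among them. By adjusted p alone 347 genes, 2.34%, were higher and 561, 3.78%, were lower, and the 62 further lower genes had groups that overlapped in fragments or in RPKM and were not called. Des, which encodes the muscle filament protein desmin, is an example, with 45.9 and 58.4 CPM in muscle and 229 and 143 CPM in adipose and a log2 fold change of -1.83 from fragments but -0.74 from reads. The test had 4 residual degrees of freedom, and the calls changed when single libraries were left out. In such a fit the group left with 1 library adds nothing to the estimate of the spread. Without muscle replicate 1 the calls were 33 higher and 17 lower, without muscle replicate 2 they were 46 and 48, without adipose replicate 1 they were 350 and 655, and without adipose replicate 2 they were 2128 and 1735. Of the 134 called genes that were named, 34 kept their call without muscle replicate 1, 38 without muscle replicate 2, 117 without adipose replicate 1 and 132 without adipose replicate 2. Among the named genes whose call was lost without adipose replicate 1 were Bmp5, C1qa, C1qc, Col22a1, Emcn, Emilin3, Erbb3, Fmod, Higd1b, Il1b, Krt7, Krt8, Mmp3, Myh4, Pla2g2e and Tnnt1. With fragments scaled by library totals alone, the median of all genes moved to 0.51 on the log2 scale and 65.6% of calls were higher in muscle, against 40.8% otherwise.

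**Figure D1:**
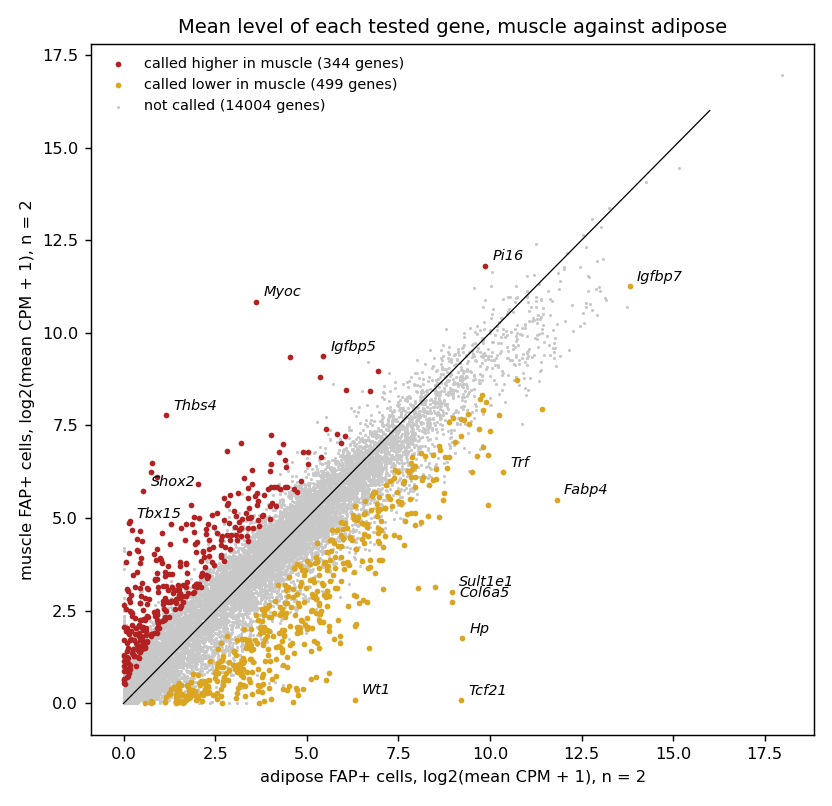
Mean CPM in muscle FAP+ cells (vertical axis) and adipose FAP+ cells (horizontal axis), both as log2(mean CPM + 1) with 2 libraries a group, for each of the 14847 tested genes, with the diagonal marking equal levels. The 344 genes called higher in muscle lie above the diagonal with Myoc farthest out at high level, and the 499 called lower lie below it with Tcf21 and Wt1 near the bottom axis.

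**Figure D2:**
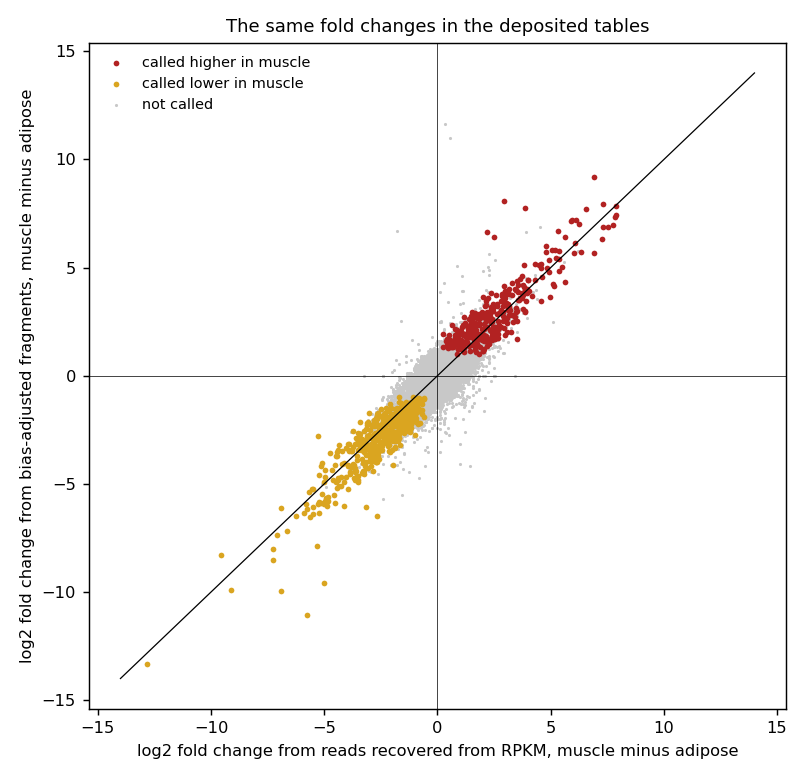
Log2 fold change, muscle minus adipose, from bias-adjusted fragments (vertical axis) against that from recovered reads (horizontal axis), 1 point a gene, with the diagonal marking equal values. Called genes with a value in both lie on the same side of 0 on both axes, 338 higher and 493 lower in muscle. The calling rule already asked for groups that did not overlap in RPKM, the source of the reads, so this was largely set beforehand.

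Transcription factors that pattern the limb and body wall were the stromal list with the largest share of calls. Of 24 listed genes 22 were tested, 12 rose in muscle and none fell, a share of 54.5% against 2.32% of all genes, and the median log2 fold change over the tested members was 2.04 against -0.01 for all genes. Among the 12 were Alx4, En1, Irx5, Meox2, Msx1, Pitx1, Shox2, Six2, Tbx4, Tbx5 and Tbx15. In a bulk sample of sorted cells, fewer cells of a type and less RNA per cell cannot be told apart, here and in what follows. Shox2, a short-stature homeobox gene needed for the proximal limb bones, had 47.0 and 57.0 CPM in muscle against 0.534 and 0.365 CPM in adipose, a log2 fold change of 6.89 ± 0.59 (SE), with an adjusted p of 0.00231. Tbx15, needed for limb skeleton and muscle, had 27.4 and 29.0 CPM in muscle against 0.152 and 0.0811 CPM in adipose. The adipose values rest on 2 fragments in each adipose library, and the ratio of 268 has a 95% exact counting interval of 104 to 985.

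Tbx5, the regulator that starts the forelimb, had 29.2 and 29.6 CPM in muscle and 0.152 and 0.122 CPM in adipose, a ratio of 222 with an interval of 95 to 686. Tbx4 and Pitx1, which act in the hindlimb, were also higher in muscle. Tbx4 had 10.7 and 15.6 CPM in muscle against 0 and 0.0811 CPM in adipose, a ratio of 257 with an interval of 70.9 to 2130. Pitx1 had 27.0 and 14.3 CPM in muscle against 0.457 and 0.122 CPM in adipose, with an adjusted p of 0.00631. Its adipose values rest on 9 fragments, and the ratio was 81.6 with an interval of 42.8 to 179. Forelimb and hindlimb regulators were thus both present in each muscle library, and the labels do not name the muscles that were dissociated. Meox2, a homeobox gene of somites and limb muscle, had 43.1 and 56.7 CPM in muscle and 5.87 and 9.45 CPM in adipose. The remaining tested members did not pass, among them Prrx1, a general limb mesenchyme factor, with 389 and 285 CPM in muscle and 99.5 and 171 CPM in adipose and an adjusted p of 0.0884. The list had 4 calls without muscle replicate 1, 5 without muscle replicate 2, 11 without adipose replicate 1 and 13 without adipose replicate 2. The recovered reads gave 12 higher and none lower in this list, also in 22 tested members.

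The factors of visceral mesoderm moved the other way, in part. Of 17 tested members 4 fell in muscle, a share of 23.5% against 3.36% of all genes, and 1 rose, 5.88% against 2.32%. Tcf21, a basic helix-loop-helix factor of the mesenchyme of visceral organs and of the epicardium, had 0.128 and 0 CPM in muscle against 846 and 335 CPM in adipose. The muscle libraries held 2 Tcf21 fragments together and the adipose libraries 19364, an adipose to muscle ratio of 9990 with an interval of 2770 to 82500. Wt1, the Wilms tumour factor of the mesothelium and of visceral fat stroma, had 0.0638 and 0.0858 CPM in muscle against 64.3 and 92.6 CPM in adipose, an adipose to muscle ratio of 1080 with an interval of 368 to 5220. Reads were not stated to be counted by strand, so Wt1 cannot be told apart from its antisense partner. Both genes were thus near the counting floor in muscle and well above it in each adipose library. In pancreas FAP+ cells they stood between, with 131 and 110 CPM for Tcf21 and 19.2 and 14.1 CPM for Wt1.

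Gata6, a zinc-finger factor of visceral mesoderm and endoderm, had 7.14 and 3.82 CPM in muscle and 23 and 54.9 CPM in adipose, a log2 fold change of -2.84 ± 0.49 (SE) with an adjusted p of 0.0196. Nr2f1, an orphan nuclear receptor, had 8.80 and 8.71 CPM in muscle and 20.4 and 34.6 CPM in adipose. Hlx, a homeobox gene of gut mesenchyme, was the member that rose, with 26.9 and 25.6 CPM in muscle and 10.1 and 4.26 CPM in adipose and an adjusted p of 0.0392. Of the members with no call, Nkx2-3 and Barx1 were near 0 in both tissues but not in pancreas. Nkx2-3 had 0 and 0.0858 CPM in muscle, 0.457 and 0 CPM in adipose and 152 and 154 CPM in pancreas, and Barx1 had 0.255 and 0 CPM in muscle, 0 and 0.0811 CPM in adipose and 54.8 and 51.3 CPM in pancreas. With either muscle library left out 2 members were called lower and none higher, and with either adipose library left out 4 were called lower.

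**Figure D3:**
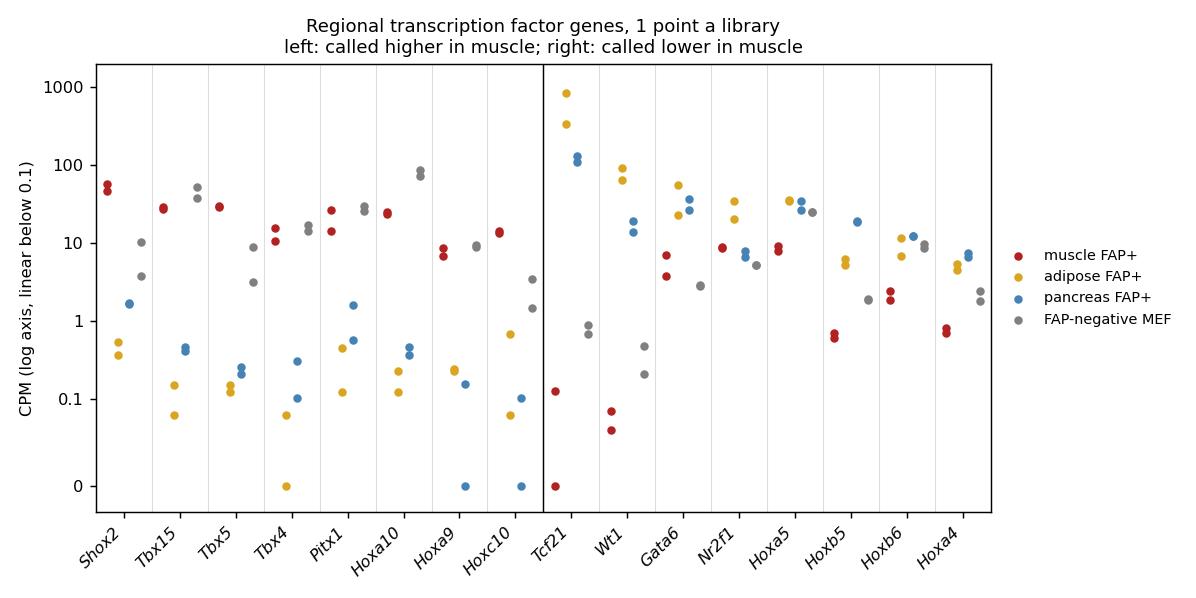
CPM of 16 transcription factor genes on a log axis that is linear below 0.1, 1 point a library, with 8 genes called higher in muscle to the left of the dividing line and 8 called lower to the right. Within each gene the groups run muscle, adipose, pancreas, MEF, and the muscle and adipose points do not overlap, from 47.0 and 57.0 CPM against 0.534 and 0.365 CPM for Shox2 to 0.702 and 0.815 CPM against 5.41 and 4.54 CPM for Hoxa4.

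The Hox genes, which are ordered along their chromosomes as they are used along the body, were called in both directions. Of 35 tested genes 3 rose in muscle, Hoxa9, Hoxa10 and Hoxc10, a share of 8.57% against 2.32% of all genes. The 6 that fell were Hoxa2, Hoxa4, Hoxa5, Hoxb5, Hoxb6 and Hoxb7, a share of 17.1% against 3.36%. All 3 that rose have paralog numbers of 9 or above, the posterior genes, and all 6 that fell have numbers of 8 or below. The posterior genes were mixed, with 3 of 14 tested called, 7 fold changes above 0 and 5 below 0, and a median of 0.30 on the log2 scale. A single posterior gene, 1 of the 14, was called higher with either muscle library left out. Hoxa10 had 23.4 and 25.4 CPM in muscle against 0.229 and 0.122 CPM in adipose, 3 fragments in each adipose library, a ratio of 155 with an interval of 70.9 to 423. Hoxc10 had 14.5 and 13.7 CPM in muscle against 0.686 and 0.0811 CPM in adipose, with an adjusted p of 0.0185. Neighbouring posterior genes were not all called, and Hoxc9 had 27.4 and 28.4 CPM in muscle and 16.5 and 8.52 CPM in adipose with an adjusted p of 0.114. The limb end of the HoxA and HoxD clusters was almost unread in either tissue, with Hoxa13 and Hoxd11 listed at 0 fragments in all 4 libraries and Hoxa13 at 3.60 and 3.31 CPM in MEFs. Hoxa9 and Hoxa10 lie side by side with overlapping transcripts, so their counts may share reads.

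Among the anterior genes, Hoxa5 had 7.97 and 9.31 CPM in muscle and 34.9 and 36.1 CPM in adipose, a log2 fold change of -2.04 ± 0.25 (SE) with an adjusted p of 0.00698. Hoxb5 had 0.702 and 0.601 CPM in muscle and 6.25 and 5.19 CPM in adipose, a log2 fold change of -3.13 ± 0.31 (SE) with an adjusted p of 0.00392. All 21 tested Hox genes with numbers from 1 to 8 had a fold change below 0, though with fragments scaled by library totals alone 16 of the 21 were below 0 and with upper quartile scaling 19 were. Calls among these 21 numbered 0 with either muscle library left out and 7 with either adipose library left out, and the recovered reads called 11 lower and none higher. Hoxb6, with 2.42 and 1.89 CPM in muscle and 11.7 and 6.94 CPM in adipose, was called from fragments but had an adjusted p of 0.0620 from the reads.

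Many genes of tendon and cartilage matrix rose in muscle. Of 24 listed genes, all tested, 12 rose, a share of 50% against 2.32% of all genes, and 1 fell, 4.17% against 3.36%. Thbs4, a thrombospondin that organises collagen at tendons and muscle attachments, had 242 and 196 CPM in muscle against 1.14 and 1.34 CPM in adipose, a log2 fold change of 7.44 ± 0.41 (SE) with an adjusted p of 0.000497. Comp, its close relative in cartilage and tendon, had 119 and 57.9 CPM in muscle against 0.686 and 0.730 CPM in adipose. Prg4, which encodes the lubricant lubricin of joints and tendon sheaths, had 967 and 334 CPM in muscle and 26.9 and 17.8 CPM in adipose, so that its muscle libraries differed between themselves as well. Chad, for chondroadherin, had 16.4 and 23.5 CPM in muscle against 0.686 and 0.162 CPM in adipose, and Angptl7, a secreted angiopoietin-like protein of cornea and tendon, had 48.9 and 86.3 CPM against 0.381 and 1.38 CPM.

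Tnmd, for tenomodulin, a membrane protein of mature tendon cells, had 25.8 and 19.9 CPM in muscle and 4.19 and 3.33 CPM in adipose, a log2 fold change of 2.61 ± 0.39 (SE) with an adjusted p of 0.0115. Fmod, the collagen-binding proteoglycan fibromodulin, had 80.3 and 137 CPM in muscle and 30.3 and 33.7 CPM in adipose with an adjusted p of 0.0476. Kera rested on 2 fragments in adipose, with 4.53 and 10.6 CPM in muscle, a ratio of 154 with an interval of 42.2 to 1270. Neither master regulator of the lineages was called. Scx, the tendon factor scleraxis, had 3.13 and 4.55 CPM in muscle and 2.90 and 0.487 CPM in adipose, with an adjusted p of 0.289, and Sox9, the cartilage factor, had 7.21 and 19.3 CPM in muscle and 14.5 and 30.2 CPM in adipose. The gene of the list that fell was Cilp, which encodes a cartilage protein that binds growth factors, with 364 and 276 CPM in muscle and 1040 and 717 CPM in adipose and an adjusted p of 0.0463, and it was not called from the reads, with an adjusted p of 0.0781. The list had 6 higher calls without muscle replicate 1, 5 without muscle replicate 2, 13 without adipose replicate 1 and 16 without adipose replicate 2.

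The gene with the widest gap toward muscle was Myoc, for myocilin, a secreted glycoprotein known from the eye and from skeletal muscle. It had 1760 and 1910 CPM in muscle against 10.5 and 12.2 CPM in adipose, 10.4 and 9.77 CPM in pancreas and 0.15 and 0.121 CPM in MEFs. The log2 fold change of muscle over adipose was 7.33 ± 0.35 (SE), with an adjusted p of 0.000497. The start-site regions of genes among those with the widest gaps in each direction were read from RefSeq (GRCm38.p6), from 250 bases before to 50 after the start, to show what sequence lies there. Hp and Wt1 had wider gaps toward adipose than Col6a5, but no region was at hand for them. Capitals mark matches, on either strand and with overlaps allowed, to a set of motifs. The T-box motif was searched as AGGTGTGA and the homeodomain motif as TAATTA. The E-box of basic helix-loop-helix factors was searched as CAGCTG. The motif of GATA factors was searched as AGATAA, and the AP-1 motif of Fos and Jun proteins as TGANTCA. The motif of C/EBP proteins was searched as TTGCGNAA, and the TATA box as TATAAA. The regions are chr1:162638900-162639199 on the plus strand for Myoc, chr13:92794769-92795068 on the minus strand for Thbs4, chr10:22820094-22820393 on the minus strand for Tcf21 and chr9:105960594-105960893 on the minus strand for Col6a5.
Myoc: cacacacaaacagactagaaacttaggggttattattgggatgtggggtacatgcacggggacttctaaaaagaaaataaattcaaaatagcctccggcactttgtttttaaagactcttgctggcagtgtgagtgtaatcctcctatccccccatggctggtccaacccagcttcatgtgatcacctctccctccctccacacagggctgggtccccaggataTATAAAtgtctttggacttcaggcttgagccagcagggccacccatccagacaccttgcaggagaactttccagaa
Thbs4: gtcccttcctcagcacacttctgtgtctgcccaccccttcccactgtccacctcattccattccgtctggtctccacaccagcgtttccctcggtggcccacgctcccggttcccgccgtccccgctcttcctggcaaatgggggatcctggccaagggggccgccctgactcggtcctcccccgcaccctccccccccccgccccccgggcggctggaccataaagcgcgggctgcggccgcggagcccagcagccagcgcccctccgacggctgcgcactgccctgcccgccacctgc
Tcf21: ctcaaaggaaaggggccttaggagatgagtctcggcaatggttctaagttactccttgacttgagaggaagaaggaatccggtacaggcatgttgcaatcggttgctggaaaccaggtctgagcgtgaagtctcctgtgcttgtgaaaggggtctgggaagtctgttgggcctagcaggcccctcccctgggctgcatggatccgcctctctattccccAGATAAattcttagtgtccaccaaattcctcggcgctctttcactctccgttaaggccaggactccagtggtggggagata
Col6a5: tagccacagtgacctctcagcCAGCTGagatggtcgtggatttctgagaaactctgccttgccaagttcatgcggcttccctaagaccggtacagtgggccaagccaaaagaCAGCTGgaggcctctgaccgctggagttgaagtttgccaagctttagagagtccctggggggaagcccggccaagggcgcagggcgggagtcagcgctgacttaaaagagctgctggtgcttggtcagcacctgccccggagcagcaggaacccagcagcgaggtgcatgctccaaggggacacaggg

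The Myoc region holds a TATA box 26 bases before the start, Tcf21 a GATA match 31 bases before it, Col6a5 E-box matches 229 and 138 bases before it, and Thbs4 none of the motifs. A promoter was at hand for 265 of the 344 higher genes, 347 of the 499 lower ones and 11351 of the 14847 tested. The TATA box was in 12.1% of the promoters of higher genes and 14.1% of those of lower genes, against 7.48% of all. The AP-1 motif was in 5.28% and 9.80%, against 5.14% of all, the homeodomain motif in 4.15% and 2.31%, against 2.41%, and the T-box motif in 0 and 0.865%, against 0.890%. The E-box was in 17.4% and 19.6%, against 15.5%, the GATA motif in 6.79% and 9.22%, against 6.44%, and the C/EBP motif in 1.51% and 0.576%, against 1.22%. These matches describe letters in the window and were not tested.

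The collagens that make up most of the fibroblast matrix did not pass. Of 20 tested fibrillar and network collagens 1 rose and 1 fell, 5% each against 2.32% and 3.36% of all genes. Col1a2, a chain of type I collagen, had 9890 and 7200 CPM in muscle and 6870 and 7360 CPM in adipose, and Col3a1 had 8010 and 6760 CPM in muscle and 8800 and 8070 CPM in adipose. For Col1a1 the adipose replicates themselves parted, at 14800 and 1770 CPM, against 2720 and 1720 CPM in muscle, and the log2 fold change was -1.90 from fragments and 0.00 from reads. Col6a5, a chain of collagen VI, was the collagen that fell, with 3.32 and 7.89 CPM in muscle against 575 and 429 CPM in adipose, a log2 fold change of -6.47 ± 0.56 (SE) with an adjusted p of 0.00231. The common chains Col6a1, Col6a2 and Col6a3 were not called, and Col6a1 had 1440 and 1620 CPM in muscle and 2420 and 1860 CPM in adipose. Col22a1, a collagen of the myotendinous junction, was the collagen that rose, with 3.95 and 1.5 CPM in muscle and 0.381 and 0.284 CPM in adipose, and it was not called without either muscle library or without adipose replicate 1.

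Other matrix lists had shares of calls near those of all genes, 2.32% higher and 3.36% lower, apart from 10% higher among proteoglycan and elastic fibre genes. Of 22 tested basement membrane genes 1 fell, 4.55%, Hmcn1 for hemicentin, with 4.02 and 4.03 CPM in muscle and 15 and 14.2 CPM in adipose. Of 30 proteoglycan and elastic fibre genes 3 rose, Fmod, Fbln7 and Emilin3, and 1 fell, 3.33%, Fbn2 for fibrillin-2, with 2.10 and 2.40 CPM in muscle and 7.24 and 12.1 CPM in adipose. Of 27 matrix proteases, lysyl oxidases and inhibitors 1 rose, Mmp3 for stromelysin, and 1 fell, Timp1, 3.70% each. Timp1, a secreted inhibitor of metalloproteinases, had 54.1 and 33.7 CPM in muscle and 664 and 172 CPM in adipose, a log2 fold change of -3.25 ± 0.63 (SE) with an adjusted p of 0.0274. None of the members of these matrix lists was called with either muscle library left out.

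**Figure D4:**
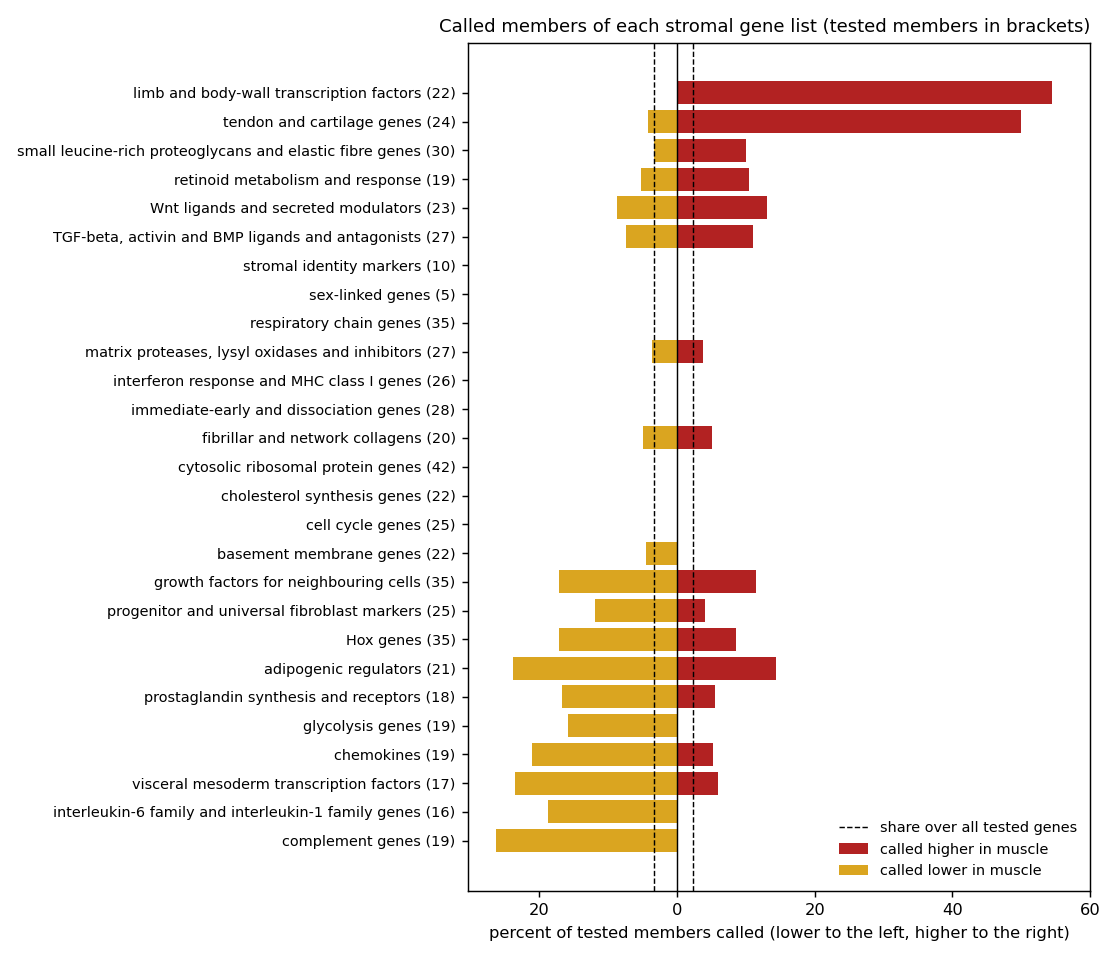
Percent of the tested members of each of 27 stromal gene lists called higher in muscle (bars to the right) or lower in muscle (bars to the left), with the number tested in brackets. Dashed lines give the shares over all genes, 2.32% higher and 3.36% lower, and the limb factors at 54.5% and the tendon and cartilage genes, 12 of 24, reach farthest to the right.

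Secreted ligands changed in both directions. Of 27 tested ligands and antagonists of the TGF-beta, activin and BMP families 3 rose, Bmp2, Bmp3 and Bmp5, 11.1% against 2.32% of all genes, and 2 fell, 7.41% against 3.36%. The list had 1 higher and no lower call with either muscle library left out, and 8 higher ones without adipose replicate 2. Bmp2, an inducer of bone and cartilage, had 48.4 and 47.2 CPM in muscle and 5.57 and 16.3 CPM in adipose, a log2 fold change of 2.11 ± 0.47 (SE) with an adjusted p of 0.0420. From the reads its log2 fold change was smaller, 0.86, with an adjusted p of 0.0331. Bmp3 rested on 3 fragments in adipose, with 9.44 and 4.85 CPM in muscle, a ratio of 84.3 with an interval of 28.5 to 411. Gdf10, a relative of Bmp3 made by stromal cells, went the other way, with 70.6 and 131 CPM in muscle and 700 and 914 CPM in adipose and an adjusted p of 0.0104. Inhbb, the subunit of activin B, had 5.74 and 7.21 CPM in muscle and 28.8 and 66.7 CPM in adipose.

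Of 23 tested Wnt ligands and modulators 3 rose, the ligand Wnt2 and the secreted inhibitors Dkk2 and Wif1, and 2 fell, the enhancers of Wnt signalling Rspo1 and Rspo3, shares of 13% and 8.70% against 2.32% and 3.36% of all genes. Dkk2 had 96.8 and 127 CPM in muscle and 5.57 and 6.65 CPM in adipose, a log2 fold change of 4.19 ± 0.33 (SE) with an adjusted p of 0.00178. Wnt2 had 55.7 and 23.5 CPM in muscle and 2.74 and 2.43 CPM in adipose. Rspo1, also made by mesothelium, had 1.40 and 2.19 CPM in muscle against 139 and 67.1 CPM in adipose, a log2 fold change of -5.82 ± 0.49 (SE) with an adjusted p of 0.00226, and 30.2 and 23.1 CPM in pancreas. Rspo3 had 7.84 and 8.45 CPM in muscle and 15.9 and 24.7 CPM in adipose. The Wnt list had 1 higher and 1 lower call without muscle replicate 1, 2 and 1 without muscle replicate 2, 5 and 2 without adipose replicate 1, and 7 and 4 without adipose replicate 2.

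Among 35 tested growth factors and their binding proteins 4 rose, 11.4% against 2.32% of all genes, and 6 fell, 17.1% against 3.36%. Igfbp5, which binds insulin-like growth factors, had 747 and 572 CPM in muscle and 43.7 and 42.1 CPM in adipose, a log2 fold change of 3.94 ± 0.46 (SE) with an adjusted p of 0.00631. Igf2 had 23.7 and 36.3 CPM in muscle and 4.73 and 6.73 CPM in adipose, and 3340 and 3060 CPM in the embryonic fibroblasts. Igfbp7, a binding protein abundant around vessels, was lower in muscle, with 2280 and 2600 CPM against 21800 and 7050 CPM in adipose and an adjusted p of 0.0378. Vegfc and Vegfd fell too. Vegfc, which acts on lymphatic vessels, had 11.3 and 10.9 CPM in muscle and 46.8 and 45.2 CPM in adipose, a log2 fold change of -2.06 ± 0.23 (SE) with an adjusted p of 0.00592, and Vegfd had 46.2 and 27.8 CPM in muscle and 159 and 96.2 CPM in adipose. Angpt2 and Hgf were also among those that fell. With either muscle library left out the list had 1 higher call and no lower one, and without adipose replicate 2 it had 10 higher ones. Fgf7 was called higher, with 23.7 and 21.2 CPM in muscle and 4.65 and 10.1 CPM in adipose, but the reads gave a log2 fold change of 0.39 with an adjusted p of 0.249.

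Ntf3, for neurotrophin-3, rose to 48.5 and 85.7 CPM in muscle, against 8.69 and 8.84 CPM in adipose, a log2 fold change of 2.94 ± 0.37 (SE) with an adjusted p of 0.00746. Ret, Gfra1 and Musk were chosen for mention after their values were seen. Ret, the receptor kinase of the GDNF family of ligands, had 109 and 192 CPM in muscle and 10.1 and 20.4 CPM in adipose, and its co-receptor Gfra1 had 11.5 and 21.4 CPM in muscle and 0.381 and 0.243 CPM in adipose. Their adjusted p was 0.00816 for Ret and 0.00631 for Gfra1. Musk, the receptor kinase best known for organising the neuromuscular junction in muscle fibres, had 57.0 and 40.1 CPM in muscle and 6.48 and 6.61 CPM in adipose, a log2 fold change of 2.89 ± 0.40 (SE) with an adjusted p of 0.00936. Of 12 tested Schwann and neural markers Mbp, with 37.2 and 26.8 CPM in muscle and 5.72 and 9.17 CPM in adipose, and Erbb3 rose, 16.7% against 2.32% of all genes, and Nefl fell, 8.33% against 3.36%. None of these markers was called with either muscle library left out. Erbb3 had 0 fragments in both adipose libraries and 0.510 and 0.429 CPM in muscle, and was not called from the reads, with an adjusted p of 0.0659. The list summed to 513 and 510 CPM in muscle and 436 and 612 CPM in adipose, of which Pmp22, for a myelin protein that other cells also make, was 272 and 306 CPM in muscle and 230 and 318 CPM in adipose. Myofibre markers summed to 153 and 186 CPM in muscle and 430 and 221 CPM in adipose. Of these sums, Des was 45.9 and 58.4 CPM in muscle and 229 and 143 CPM in adipose. Tnnt3 was 32.1 and 45.1 CPM in muscle and 64.0 and 17.2 CPM in adipose. Of the 23 tested 4 were called higher in muscle, 17.4%, and 2 lower, 8.70%, and the median log2 fold change was -0.07 from fragments and 2.42 from reads. Among the higher ones was Ckm, the muscle creatine kinase, with 5.68 and 7.51 CPM in muscle against 0.305 and 0 CPM in adipose. The part of Schwann cell and myofibre RNA in the levels of Ret, Gfra1 and Musk was not tested.

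Factors linked to support of muscle and blood cells were looked at by name. Fst, for follistatin, which binds and blocks myostatin and activins, had 141 and 191 CPM in muscle and 45.7 and 95.2 CPM in adipose. Its log2 fold change was 1.24 ± 0.37 (SE) with an adjusted p of 0.0995, and 0.24 with an adjusted p of 0.543 from the reads, so no difference was called. Lama2, the laminin chain missing in a congenital muscular dystrophy, had 353 and 432 CPM in muscle and 542 and 492 CPM in adipose, with an adjusted p of 0.435. Igf1 had 853 and 984 CPM in muscle and 1970 and 1460 CPM in adipose, with an adjusted p of 0.152 from fragments and 0.0147 from reads. Kitl, for stem cell factor, had 6.25 and 5.41 CPM in muscle and 10.1 and 24.7 CPM in adipose, with an adjusted p of 0.0783 from fragments and 0.00136 from reads. Cxcl12, the chemokine that holds blood progenitors in marrow, had 403 and 638 CPM in muscle and 392 and 943 CPM in adipose, with an adjusted p of 0.656 from fragments and 0.0223 from reads. Of these genes Il6 alone was called, with 84.0 and 52.8 CPM in muscle and 244 and 210 CPM in adipose, a log2 fold change of -1.73 ± 0.29 (SE) and an adjusted p of 0.0185. Dpp4, the protease most like FAP, had 147 and 129 CPM in muscle and 26.3 and 70.3 CPM in adipose with an adjusted p of 0.154, and Fap had a log2 fold change of 1.65 ± 0.54 (SE) with an adjusted p of 0.124.

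Inflammatory signals that differed were mostly lower in muscle. Of 16 tested interleukin-6 and interleukin-1 family genes 3 fell, Il6, the receptor Osmr and Il1b, 18.8% against 3.36% of all genes, and none rose. Of 19 tested chemokine genes 4 fell, 21.1%, and 1 rose, 5.26% against 2.32%. Ccl2, which draws monocytes, had 170 and 71.1 CPM in muscle and 1080 and 717 CPM in adipose, a log2 fold change of -2.90 ± 0.46 (SE) with an adjusted p of 0.0141. Its relative Ccl7 had 213 and 111 CPM in muscle and 1310 and 729 CPM in adipose. Cxcl14 rose, with 314 and 587 CPM in muscle and 50.5 and 30.3 CPM in adipose, a log2 fold change of 3.48 ± 0.46 (SE) with an adjusted p of 0.00847. Of 19 tested complement genes 5 fell, a share of 26.3% against 3.36% of all genes, and none rose. C2 had 26.6 and 19.8 CPM in muscle and 171 and 73.9 CPM in adipose, with an adjusted p of 0.0210. C1qa, C1qc and Cfd, also among those that fell, are known products of macrophages and adipocytes and rested on 2 to 6 fragments in muscle. With either muscle library left out no complement or interleukin family gene was called, and the chemokine genes that fell lost their calls. Cxcl14 kept its call without muscle replicate 1 but lost it without muscle replicate 2.

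None of 26 interferon response genes and none of 28 immediate-early genes, which mark stress of dissociation, was called in either direction in the fragments. The immediate-early genes summed to 30400 and 34200 CPM in muscle and 31500 and 27700 CPM in adipose, and to 1070 and 1230 CPM in the cultured MEFs. At an unadjusted p below 0.05 there were 6 interferon response genes, all lower in muscle, and 5 higher and 8 lower immediate-early genes. Without adipose replicate 2, 4 higher and 1 lower interferon response genes and 7 higher and 3 lower immediate-early genes were called. Without adipose replicate 1, 1 higher and 2 lower immediate-early genes were called. DESeq2 called 1 lower interferon response gene and 4 higher and 4 lower immediate-early genes, and the recovered reads called 1 higher and 2 lower interferon response genes and 2 higher and 3 lower immediate-early genes.

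Hp, Agt, Trf, Sult1e1 and Sphk1 were among the 15 genes with the widest gaps toward adipose. Hp, for the haemoglobin-binding protein haptoglobin, had 3.44 and 1.33 CPM in muscle against 565 and 650 CPM in adipose, a log2 fold change of -8.01 ± 0.80 (SE) with an adjusted p of 0.00392. Agt, for angiotensinogen, the precursor of angiotensin, had 8.36 and 7.25 CPM in muscle and 408 and 313 CPM in adipose, and Trf, for the iron carrier transferrin, had 58.0 and 90.4 CPM in muscle and 1260 and 1350 CPM in adipose. Sult1e1, an oestrogen sulfotransferase, had 9.89 and 4.29 CPM in muscle and 485 and 505 CPM in adipose, and 0.0521 and 0 CPM in pancreas. Sphk1, which makes sphingosine-1-phosphate, had 37.6 and 41.5 CPM in muscle and 1060 and 895 CPM in adipose, a log2 fold change of -4.63 ± 0.31 (SE) with an adjusted p of 0.000899. For each of these genes both adipose libraries lay above both muscle libraries.

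Adipogenic regulators moved in both directions. Of 21 tested genes 5 fell in muscle, Cd36, Fabp4, Fabp5, Icam1 and Pparg, 23.8% against 3.36% of all genes, and 3 rose, Dlk1, Ebf3 and Srebf1, 14.3% against 2.32%. Pparg, the nuclear receptor that drives fat cell differentiation, had 3.32 and 5.41 CPM in muscle and 43.2 and 37.0 CPM in adipose, a log2 fold change of -3.19 ± 0.33 (SE) with an adjusted p of 0.00445. Fabp4, a fatty acid carrier of fat cells, had 21.5 and 66.6 CPM in muscle and 6450 and 782 CPM in adipose, so its adipose libraries differed between themselves. Dlk1, an inhibitor of fat cell differentiation, had 21.0 and 61.8 CPM in muscle and 6.63 and 5.72 CPM in adipose, with an adjusted p of 0.0236. Ebf3 had 86.8 and 88.9 CPM in muscle and 10.2 and 20.3 CPM in adipose. Cebpa, the partner of Pparg, was not called, with 11 and 17.5 CPM in muscle and 7.17 and 31.0 CPM in adipose. The list had 1 higher call without muscle replicate 1 and 1 lower call without muscle replicate 2.

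Of 17 tested adipocyte markers 4 fell in muscle, Car3, Cfd, Cidec and Fabp4, 23.5% against 3.36% of all genes, and none rose. None was called with either muscle library left out. Summed over the 20 genes in the table, adipocyte markers reached 307 and 366 CPM in muscle and 6990 and 1170 CPM in adipose. Cidec, a lipid droplet protein, had 0 fragments in both muscle libraries and 2.74 and 1.38 CPM in adipose, at least 12.9-fold higher in adipose with 3 fragments a library as the floor. The part of adipocyte RNA in the lower levels of Pparg and Fabp4 in muscle was not tested.

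Most progenitor markers were not called. Of 25 tested genes 1 rose, 4% against 2.32% of all genes, and 3 fell, 12.0% against 3.36%, and none was called with either muscle library left out. The one that rose was Pi16, with 4280 and 2920 CPM in muscle and 745 and 1120 CPM in adipose, a log2 fold change of 1.95 ± 0.38 (SE) with an adjusted p of 0.0285. Pi16 encodes a secreted peptidase inhibitor that marks adventitial fibroblasts. Those that fell were Icam1, Nt5e and Vit, and Icam1, an adhesion protein of committed preadipocytes, had 75.6 and 83.7 CPM in muscle and 350 and 380 CPM in adipose. Ly6a, the Sca-1 antigen, had 1630 and 1060 CPM in muscle and 1710 and 791 CPM in adipose, and was not called.

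Of 19 tested glycolysis genes Hk2, Pfkfb3 and Slc2a1 fell in muscle, 15.8% against 3.36% of all genes, and none rose. Slc2a1, the basal glucose transporter, had 18.0 and 18.0 CPM in muscle and 60.9 and 60.5 CPM in adipose, with an adjusted p of 0.0113. Of 19 retinoid genes Crabp1 and Cyp26b1 rose, 10.5% against 2.32% of all genes, and 1 other fell, 5.26%, and of 18 prostaglandin genes Ptgfr rose, 5.56%, and Hpgd, Pla2g2e and Ptgis fell, 16.7%. With either muscle library left out no glycolysis or prostaglandin gene and 1 retinoid gene, higher in muscle, was called. Cyp26b1, which degrades retinoic acid, had 33.2 and 38.5 CPM in muscle and 5.87 and 8.23 CPM in adipose, and Ptgis, the prostacyclin synthase, had 159 and 105 CPM in muscle and 684 and 374 CPM in adipose. Dio2, which activates thyroid hormone, was among the 15 widest gaps toward muscle, with 15.8 and 17.5 CPM against 0.305 and 0.284 CPM in adipose. None of 22 cholesterol synthesis, 25 cell cycle, 42 ribosomal protein and 35 respiratory chain genes was called. At an unadjusted p below 0.05 there were 0 cholesterol synthesis, 6 cell cycle, 9 ribosomal protein and 10 respiratory chain genes, all lower in muscle. DESeq2 called 1 lower cell cycle, 1 lower ribosomal protein and 3 lower respiratory chain genes, and the recovered reads called 3 higher and 1 lower cholesterol genes, 2 lower cell cycle genes and 1 lower respiratory chain gene. Ribosomal protein genes summed to 35100 and 23700 CPM in muscle and 128000 and 26400 CPM in adipose, and their median log2 fold change was -1.34 from fragments and -0.78 from reads, so 1 adipose library alone stood high. Without adipose replicate 1 the median was 0.17, with 32 of the 42 above 0 and none called, in the reads 0.22. Without adipose replicate 2 it was -2.03, with 30 called lower and 1 higher, and 29 lower and 1 higher in the reads. The respiratory chain genes had 19 lower calls without adipose replicate 2 and 1 without adipose replicate 1, at medians of -1.30 and 0.01. The ribosomal protein and respiratory chain values thus rested on adipose replicate 1. The cholesterol genes had 2 higher and 1 lower calls and the cell cycle genes 1 lower call without adipose replicate 2.

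Among the remaining genes with the widest gaps toward muscle were Itgb7, Mab21l1 and Rorb. Itgb7, the integrin beta-7 chain known from lymphocytes, had 98.9 and 50.3 CPM in muscle against 0.991 and 0.365 CPM in adipose, a log2 fold change of 6.88 ± 0.59 (SE) with an adjusted p of 0.00231. Lymphocyte markers summed to 47.6 and 51.3 CPM in muscle and 10.9 and 56.0 CPM in adipose over 18 genes. Of these sums, Rora alone was 45.7 and 49.6 CPM in muscle and 3.81 and 53.1 CPM in adipose. Of the 18 genes 3 were tested, and none was called in the fragments or the reads. At an unadjusted p below 0.05 there were 2, and DESeq2 called 1 lower. The part of lymphocyte RNA in the Itgb7 level was not tested. Mab21l1 had 13.8 and 17.5 CPM in muscle against 0.0762 and 0.122 CPM in adipose, a ratio of 151 with an interval of 58.7 to 556, and Rorb, an orphan nuclear receptor of brain and retina, had 28.7 and 19.3 CPM in muscle against 0.305 and 0.406 CPM in adipose. Toward adipose they were Nkain4, Mmd2 and Cldn5. Nkain4, which interacts with the sodium pump, had 0.702 and 0.386 CPM in muscle against 52.1 and 37.8 CPM in adipose, and Mmd2 had 0 and 0.172 CPM in muscle against 14.9 and 15.6 CPM in adipose, an adipose to muscle ratio of 149 with an interval of 58.0 to 550.

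Markers of cells other than fibroblasts differed between the groups as well. Of 20 tested endothelial markers 6 fell in muscle, Cdh5, Cldn5, Emcn, Esam, Gpihbp1 and Lyve1, 30.0% against 3.36% of all genes, and none rose. The list summed to 471 and 821 CPM in muscle and 1700 and 1750 CPM in adipose. Of these sums, Eng alone was 311 and 464 CPM in muscle and 287 and 435 CPM in adipose, and it had 848 and 856 CPM in pancreas. Cldn5, the tight junction protein of endothelium, had 2.81 and 12.5 CPM in muscle against 194 and 332 CPM in adipose, a log2 fold change of -5.09 ± 0.76 (SE) with an adjusted p of 0.0117, and 0.886 and 0.676 CPM in pancreas. Pecam1, which defines the endothelium, had 4.08 and 20.2 CPM in muscle and 57.7 and 114 CPM in adipose, with an adjusted p of 0.0694. No endothelial marker was called without muscle replicate 1 and 3 were without muscle replicate 2.

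Of 11 tested macrophage and leukocyte markers 6 fell, Cd74, Fcer1g, H2-Aa, H2-Ab1, Laptm5 and Lyz2, 54.5% against 3.36% of all genes, and none rose. The list summed to 25 and 21.1 CPM in muscle and 167 and 80.0 CPM in adipose over 20 genes. Cd74, the invariant chain of MHC class II, had 1.53 and 1.76 CPM in muscle and 44.4 and 23.1 CPM in adipose, with an adjusted p of 0.00824. No leukocyte marker was called with either muscle library left out. Of 15 tested pericyte and smooth muscle markers 6 fell, 40.0% against 3.36% of all genes, among them Acta2 and Myh11. Cspg4 rose, 6.67% against 2.32%. Acta2, smooth muscle actin, had 12.8 and 19.7 CPM in muscle and 49.0 and 50.4 CPM in adipose, and the pericyte proteoglycan gene Cspg4 had 45.5 and 65.1 CPM in muscle and 11.3 and 7.91 CPM in adipose. The pericyte list summed to 187 and 278 CPM in muscle and 451 and 398 CPM in adipose, and had no call with either muscle library left out. The endothelial, leukocyte and pericyte lists thus summed lower in both muscle libraries than in both adipose libraries, and their part in the inflammatory genes above was not tested.

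Of 19 tested mesothelial and epithelial markers Krt8, Nkain4, Rspo1 and Wt1 fell, 21.1% against 3.36% of all genes, and Krt7 rose, 5.26% against 2.32%. In this list 3 genes were called lower and none higher with either muscle library left out. The defining mesothelial markers Msln, with 0.446 and 0.257 CPM in muscle and 1.30 and 0.689 CPM in adipose, and Upk3b, with 0.319 and 0.386 CPM in muscle and 1.52 and 1.10 CPM in adipose, were near 0 in both. The list summed to 742 and 314 CPM in muscle and 677 and 386 CPM in adipose, with Sbsn at 694 and 263 CPM in muscle and 358 and 133 CPM in adipose. Of 23 tested myofibre markers Acta1, Ckm, Myh4 and Tnnc2 rose, 17.4% against 2.32% of all genes, and Actn3 and Tnnt1 fell, 8.70% against 3.36%. With either muscle library left out none was called higher and 1 was called lower, and the recovered reads called 9 higher and 2 lower. Acta1, skeletal muscle actin, had 8.42 and 9.91 CPM in muscle and 1.30 and 0.487 CPM in adipose. Of 8 tested satellite cell markers Megf10 fell, 12.5% against 3.36% of all genes, and none rose. The satellite cell list summed to 104 and 106 CPM in muscle and 104 and 193 CPM in adipose. Haemoglobin genes came mostly from 1 library, with Hbb-bs at 23.4 and 31.1 CPM in muscle and 495 and 49.6 CPM in adipose, and the erythroid list summed to 94.7 and 143 CPM in muscle and 1910 and 187 CPM in adipose. None of 6 tested erythroid markers was called by edgeR, DESeq2 or from the reads, and 4 had an unadjusted p below 0.05, while 1 was called lower without either adipose library in turn.

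**Figure D5:**
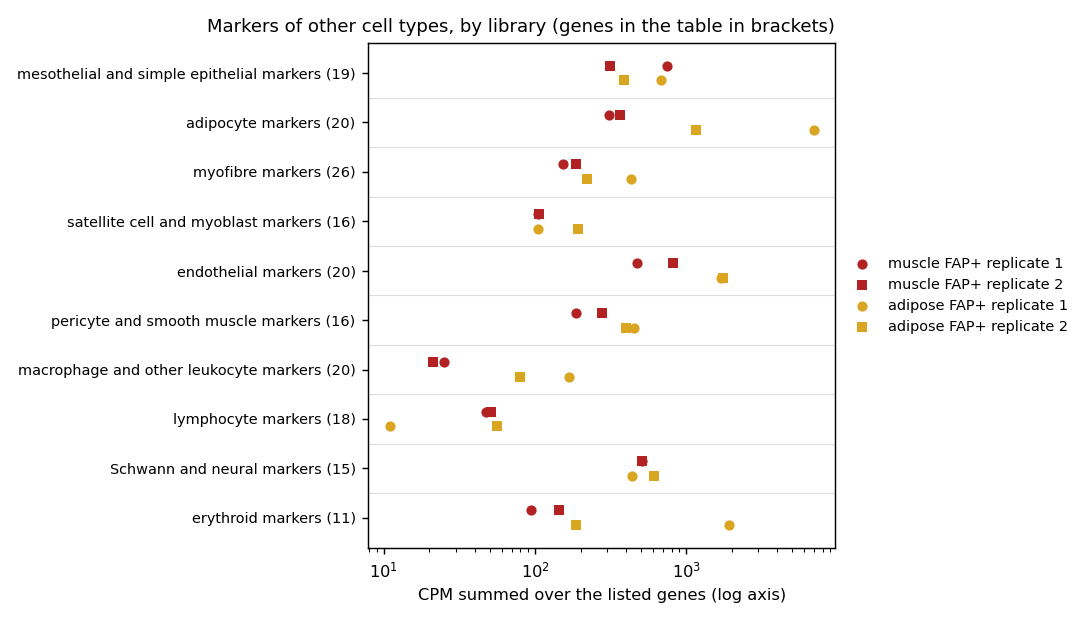
CPM summed over the listed marker genes of 10 other cell types (log axis), 1 point a library, with muscle above adipose in each row and the number of genes in brackets. Endothelial markers sit at 471 and 821 CPM in muscle and 1700 and 1750 CPM in adipose, and adipocyte and erythroid markers reach 6990 and 1910 CPM in adipose replicate 1.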

How the data were processed

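RNA-seq was measured in 8 mouse libraries, 2 each of FAP+ cells from skeletal muscle, visceral adipose tissue and pancreas and of FAP-negative MEFs, and the comparison here is muscle against adipose. Per the labels, RNA was amplified with MessageAmp, which copies from the poly(A) tail and favours 3' sequence, before Illumina library preparation. Per the file headers, the authors deposited estimated counts, that is fragments per gene adjusted for sequence bias, whose values need not be whole. The matching bias-adjusted FPKM values were deposited by the authors per gene and library, per the file headers. A further table of RPKM values was deposited by the authors, per the file headers. Bowtie2, TopHat2, HTSeq and edgeR, without versions, and build mm9 are listed per the submitters' processing notes. Which program made the bias adjustment is not known here. In each file 8 columns were used and 6 others were not.

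Estimated counts were rounded, scaled by TMM and tested with edgeR 4.0.16 (quasi-likelihood, all 8 libraries, R 4.3.3) with Benjamini-Hochberg adjustment. The common biological coefficient of variation was 33.2%. Each SE is the size of the log2 fold change divided by the square root of the F statistic of the quasi-likelihood test. Whole reads were recovered from the RPKM steps, within 0.01 of a whole number, for 99.99% of genes with values above 0 in 2 or more libraries, 9502537 to 16816603 reads a library, and were tested the same way. limma 3.58.1 and DESeq2 1.42.0 served as alternatives. Identifiers matched a current symbol for 20439 genes, an older one for 1913 and none for 257. Where a group held 10 fragments or fewer of a gene, a ratio with its 95% exact counting interval replaces the fold change where it is printed, and such intervals cover counting error only. The replicates are the labels' biological replicates, and p-values rest on 1 estimate of the spread shared by all 8 libraries. The adipose replicates were farther apart than the others, with 28.9% of genes over 2-fold apart in fragments. This share was 1.43% in muscle, 1.16% in pancreas and 2.77% in MEFs, so the shared estimate does not describe adipose alone. Genes were named as Fap and Dpp4, as 6 genes of muscle and blood support, as the 15 with the widest gap in each direction (10 CPM or more in each library of the higher group, lowest over highest CPM with 1 added), as up to 5 called members a list and direction, and as the 2 highest markers of each other cell type. The members, the 37 gene lists and the tests were chosen with earlier results of these data known. The main edgeR fit and a limma fit were checked on simulated data in which each gene had the same spread in all groups. The other alternatives were not checked in this way. Some genes are not reported here.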

Additional observations from a re-analysis of the deposited data

How the results depend on the processing

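All 134 named genes with a call kept their direction under each of the 21 alternatives that gave a value, of which 2, the recovered reads without each adipose replicate, were chosen after seeing the data. These genes were chosen for calls without overlap between the groups, so a reversal was unlikely from the start and this gives no added support. Counts of genes higher and lower in muscle, 344 and 499, stayed within 1.5 times under RLE scaling (330 and 529), upper quartile scaling (406 and 423), no filter on low counts (261 and 411), a minimum of 5 CPM in 2 libraries (264 and 378) and a replicate block (271 and 414). They moved with DESeq2 to 618 and 958, and with recovered reads to 859 and 1075. They also moved with a test against a 2-fold change to 111 and 160. With only the FAP+ libraries they moved to 202 and 315, and with only the muscle and adipose libraries to 33 and 39. RPKM in limma gave 616 and 589, where the higher count moved and the lower stayed within 1.5 times. Library totals alone gave 309 and 162. limma on log2(FPKM + 1) gave 240 and 197, with 0.1 added 206 and 147, and with a minimum of 1 FPKM in 2 libraries 239 and 243. Leaving out 1 library gave 33 to 2128 higher and 17 to 1735 lower genes. The recovered reads without adipose replicate 1 gave 937 and 1228, and without adipose replicate 2 they gave 2780 and 2518. The cause was not tested.

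The share of calls that were higher in muscle was 40.8%, 65.6% with library totals, 54.9%, 58.4% and 49.6% in the limma fits on FPKM in the order above, 51.1% on RPKM, 66.0% without muscle replicate 1, 55.1% without adipose replicate 2 and 52.5% in the reads without adipose replicate 2. The median of all genes was 0.51 with library totals, 0.11 with upper quartile scaling, and 0.31 and 0.33 with 0.1 added to FPKM and with the FPKM minimum. Among genes without a call, Cxcl12 turned from -0.36 to 0.027 with library totals, 0.225 with log2(FPKM + 1) with or without the minimum and 0.236 with 0.1 added, and ranged from -0.868 without adipose replicate 1 to 0.413 without adipose replicate 2. In the recovered reads it was -1.182, with an adjusted p of 0.0223 by edgeR, and -1.133 and -1.222 without adipose replicates 1 and 2. Lama2 turned from -0.40 to 0.156 with library totals, 0.094 with log2(FPKM + 1) with or without the minimum and 0.096 with 0.1 added. The replicate numbers were not taken to pair the libraries. Correlations of deviations between same-numbered libraries were 0.113 for muscle with adipose, -0.0109 for muscle with pancreas, -0.0737 for muscle with MEFs, 0.347 for adipose with pancreas, -0.156 for adipose with MEFs and 0.00301 for pancreas with MEFs, so some pairs were above 0.1 and others below it, and under the replicate block 113 of the 134 named calls held. The test against a 2-fold change kept 71 of the 134, and the fit with only the muscle and adipose libraries kept 35. Depth limits genes with 10 fragments or fewer in a group, whose counting intervals are wide.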
